A study of Saccharomyces cerevisiae with 8 samples.

Results

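The genes described here encode 55 assembly factors of the large (60S) ribosomal subunit of budding yeast, out of 6225 open reading frames with a probe on the array. They were set as a list of gene names, by a rule that uses no expression values, and were found by their systematic names. The list was nonetheless chosen with earlier results of these data known. All 55 were on the array with 1 probe each, all 55 passed the filter on dim probes that left 5394 genes for testing, and 53 were well above background on every array. The exceptions were SDA1 (YGR245C), above background on 1 of 2 salt-treated htz1D arrays, and PUF6 (YDR496C), above background on 1 of 2 salt-treated WT arrays.

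The samples fell into 4 groups of 2 biological replicates, all in a strain labelled BY4147 and all grown in rich medium (YPD). They were htz1D, a deletion of HTZ1, given 0.4 M NaCl for 20 min; htz1D without salt; WT with the same salt treatment; and WT without salt. HTZ1 encodes the histone variant H2A.Z. The labels do not say how the deletion was made or whether more than 1 clone was used.

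Assembly of the 60S subunit begins in the nucleolus on the precursor of the 25S and 5.8S ribosomal RNAs, which the separately made 5S rRNA joins. Helicases, RNA-binding scaffolds and GTPases fold the RNA there and release its spacers, AAA ATPases remodel the particle in the nucleoplasm, and export and recycling factors complete it in the cytoplasm. In yeast these genes belong to the ribosome biogenesis regulon, which is known to be turned down in many kinds of stress.

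Expression was read as 1-colour Agilent signal. Levels below are log2 signal relative to the 75th percentile of the same array, so a level of 0 is that percentile, and changes are differences of such levels with the standard error (SE) of a limma fit over all 8 arrays. The signal at the 75th percentile was 2740 to 4290, 82.2% to 88.9% of spots were well above background, and the number of arrays limits the precision. HTZ1 itself was not above background on any of the 4 htz1D arrays and was at least 75.5-fold lower in htz1D than in WT with salt and at least 65.7-fold lower without salt. GPD1, a glycerol synthesis gene induced by osmotic stress, rose with salt by 4.30 log2 units in htz1D and 4.70 in WT. CTT1 rose by 6.64 and 6.13, and HSP12 by 5.91 and 7.60, in the same order of strains. All arrays lay on 1 slide, where the row followed the strain and the column the treatment, so slide position cannot be told apart from either.

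Salt lowered every one of the 55 transcripts in both strains. In htz1D, 55 of 55 were lower with salt at an adjusted p under 0.05 (limma, Benjamini-Hochberg over all genes tested), against 29.1% of all 5394 genes. In WT it was again 55 of 55, against 25.7% of all genes. The median change was -3.03 in htz1D, an 8.17-fold reduction that left 12.2% of the level without salt, and -2.33 in WT, a 5.03-fold reduction that left 19.9%. The median over all genes tested was 0.01 in htz1D and 0.07 in WT. In bulk RNA such as this, fewer cells carrying a transcript and less of it per cell cannot be told apart.

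The size of the reduction varied widely among the genes. It ran between -4.52 and -0.92 in htz1D and between -3.96 and -0.92 in WT, with SEs of 0.11 to 0.44; the low end in WT is PUF6, which was not well above background on 1 of its arrays there. At least 4-fold reductions were found for 46 genes in htz1D and 36 in WT, and at least 8-fold reductions for 28 in htz1D and 7 in WT. Among all 5394 genes tested, 263 in htz1D and 188 in WT fell at least 4-fold, and 104 and 30 at least 8-fold. For each of the 55 genes, both salt-treated arrays were below both untreated arrays of the same strain, which held for 38.6% of all genes in htz1D and 37.6% in WT. Genes that fell far in one strain tended to fall far in the other: over the 55 genes the changes in htz1D and WT, which share no arrays, had a Pearson r of 0.817 and a Spearman rho of 0.809. Over all genes tested the Pearson r was 0.94. These correlations are a description across genes, which are not independent replicates.

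**Figure D1:**
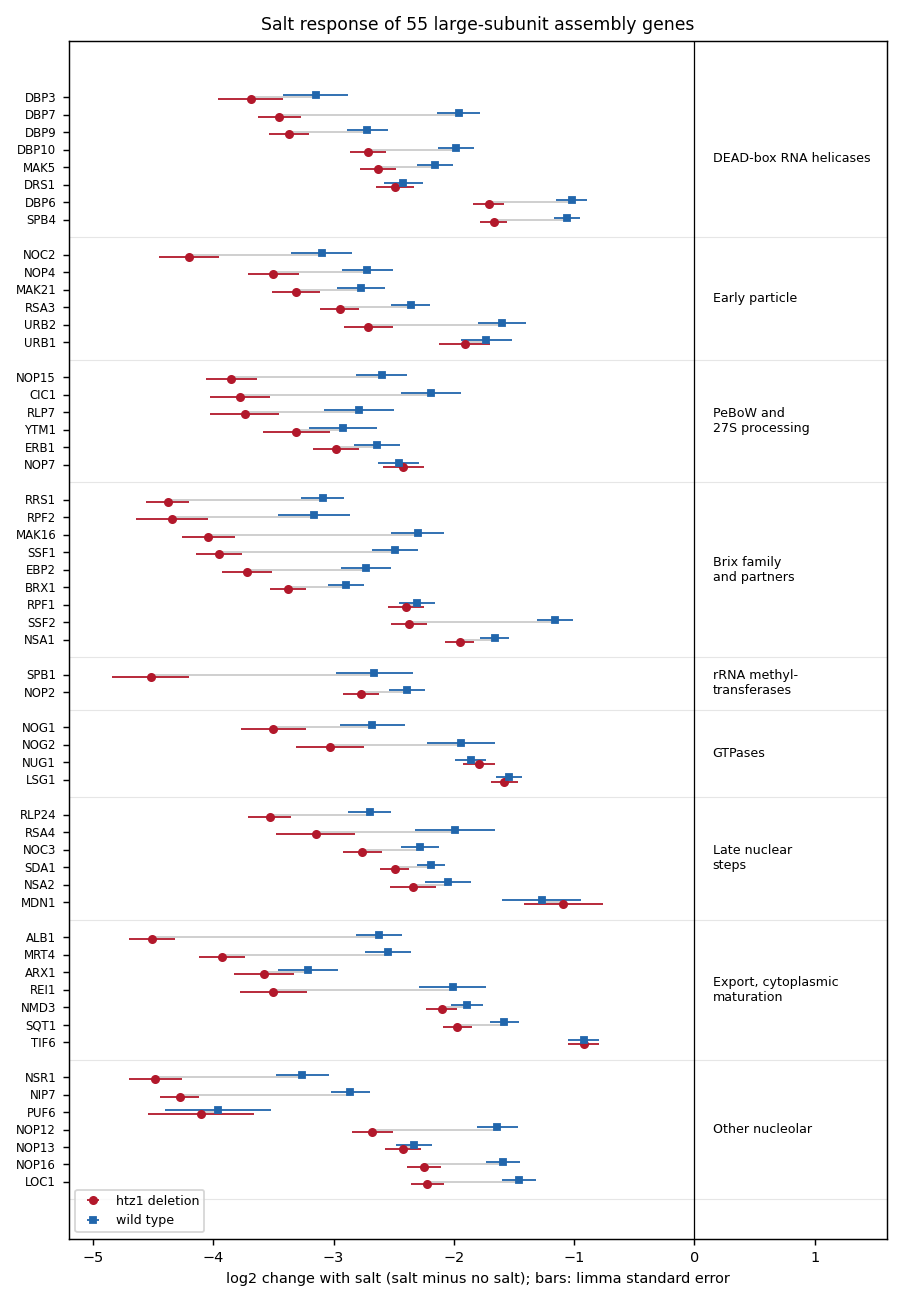
Salt response of each of the 55 genes, as log2 change (salt minus no salt) with its limma standard error, in htz1D (red circles) and WT (blue squares), grouped by role. Every point lies below 0, SPB1 and ALB1 reach the lowest values in htz1D (-4.52 and -4.51), and TIF6 lies closest to 0 in both strains (-0.92).

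The 8 arrays showed the same order. The median deviation of the 55 genes from their own means was -1.96 and -1.73 on the salt-treated htz1D arrays, 1.14 and 1.24 on the untreated htz1D arrays, -1.03 and -0.66 on the salt-treated WT arrays, and 1.40 and 1.46 on the untreated WT arrays. The median over all genes stayed between -0.03 and 0.08 on every array. The 2 salt-treated WT arrays stood apart from each other for these genes: 51 of 55 were lower on replicate 1, by a median of 0.42 log2 units, and the median absolute difference was 0.43 against 0.16 over all genes. The median deviation over all genes was 0.08 on replicate 1 and 0.07 on replicate 2 of WT with salt. The share of all genes lower on replicate 1 was not counted. In the other groups the 55 genes' median absolute difference between replicates was 0.24 (htz1D with salt), 0.15 (htz1D without salt) and 0.08 (WT without salt).

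**Figure D2:**
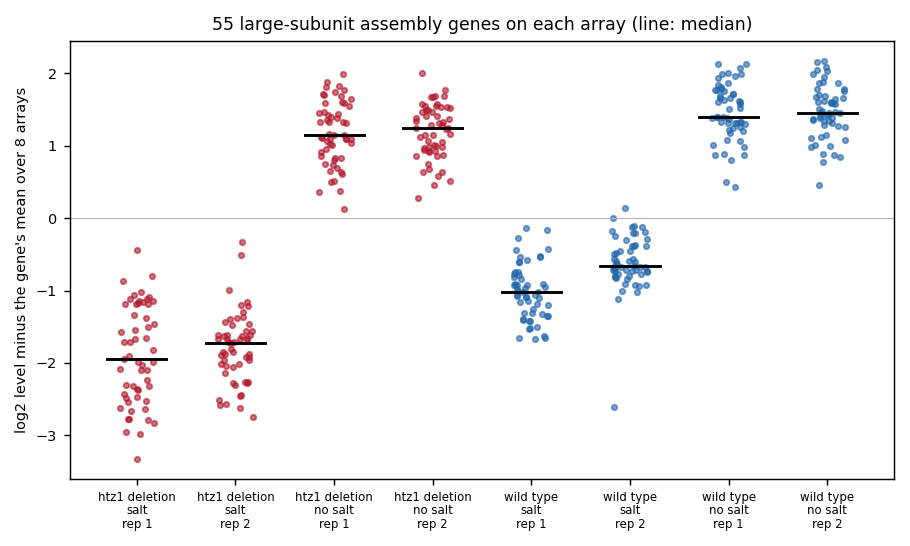
Each point is 1 of the 55 genes on 1 array, as its log2 level minus its own mean over the 8 arrays, and the line is the median. Both salt-treated htz1D arrays (medians -1.96 and -1.73) lie below both salt-treated WT arrays (-1.03 and -0.66), and the WT arrays with salt lie apart from each other.

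The 8 DEAD-box RNA helicases, enzymes that unwind and remodel RNA, fell by a median of 2.67 log2 units in htz1D and 2.07 in WT. DBP3 (YGL078C), which acts in cleavage of the internal spacer, changed the most: its levels were -2.71 and -2.37 in htz1D with salt, 1.24 and 1.07 in htz1D without salt, -2.00 and -1.16 in WT with salt, and 1.46 and 1.68 in WT without salt. That was a change of -3.69 ± 0.27 (SE, n = 2 arrays a group) in htz1D and -3.15 ± 0.27 in WT. DBP7 (YKR024C), needed for early particles, fell to -4.92 and -4.76 in htz1D with salt, against -1.53 and -1.25 without, and to -3.09 and -2.60 in WT with salt, against -0.89 and -0.88 without. Its changes of -3.45 ± 0.18 and -1.96 ± 0.18 lie further apart than those of any other helicase. SPB4 (YFL002C) and DBP6 (YNR038W), a late-acting and an early-acting helicase, changed the least, by -1.67 and -1.71 in htz1D and -1.06 and -1.02 in WT. DRS1 (YLL008W) changed nearly alike in the strains, by -2.49 ± 0.16 in htz1D and -2.42 ± 0.16 in WT.

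The 6 factors of the earliest particles fell by a median of 3.13 in htz1D and 2.54 in WT. NOC2 (YOR206W), the partner of MAK21 in a complex that travels with early particles, was at -4.23 and -4.03 in htz1D with salt and 0.04 and 0.10 without, and at -3.08 and -2.24 in WT with salt and 0.37 and 0.52 without. Its changes were -4.20 ± 0.25 in htz1D and -3.10 ± 0.25 in WT, the largest of the 6 in both strains. The smallest in htz1D was that of URB1 (YKL014C), the scaffold of the complex that also holds URB2, RSA3 and DBP6, at -1.91 ± 0.21, with -1.73 ± 0.21 in WT. URB2 (YJR041C) of the same complex changed by -2.71 ± 0.20 in htz1D and -1.60 ± 0.20 in WT. The changes of URB1 and URB2 lay close together in WT and further apart in htz1D, which was not tested.

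The group of NOP7, ERB1 and YTM1, which form 1 complex, and of RLP7, NOP15 and CIC1, which bind the second internal spacer, fell by a median of 3.52 in htz1D and 2.62 in WT. NOP15 (YNL110C) changed by -3.85 ± 0.21 in htz1D and -2.60 ± 0.21 in WT. CIC1 (YHR052W) was at -3.70 and -2.93 in htz1D with salt and 0.51 and 0.42 without, and at -1.74 and -1.29 in WT with salt and 0.70 and 0.66 without, which gave -3.78 ± 0.25 and -2.19 ± 0.25. NOP7 (YGR103W) fell alike in the strains, by 2.42 in htz1D and 2.46 in WT. YTM1 (YOR272W), the partner of ERB1, changed by -3.31 ± 0.28 in htz1D and by -2.92 ± 0.28 in WT, the largest WT change of these 6.

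The Brix-domain proteins, a family of rRNA-binding factors, and their partners had the largest median reduction of the 9 role groups in htz1D (-3.72), while their median in WT was -2.49. RRS1 (YOR294W), which with RPF2 brings the 5S ribonucleoprotein into the particle, was at -4.04 and -3.84 in htz1D with salt and 0.59 and 0.29 without, and at -2.79 and -2.40 in WT with salt and 0.61 and 0.38 without. It changed by -4.38 ± 0.18 in htz1D and -3.09 ± 0.18 in WT. Its partner RPF2 (YKR081C) was close to it, with -4.34 ± 0.30 and -3.16 ± 0.30. MAK16 (YAL025C) and RPF1 (YHR088W), which bind each other, had unlike values: MAK16 changed by -4.04 ± 0.22 in htz1D and -2.30 ± 0.22 in WT, and RPF1 by -2.40 ± 0.15 and -2.31 ± 0.15. NSA1 (YGL111W), found in the same subcomplex, had the smallest change of the 9 in htz1D, -1.95 ± 0.12.

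SSF1 (YHR066W) and SSF2 (YDR312W) are paralogs with overlapping function. SSF1 was at -3.29 and -3.28 in htz1D with salt and 0.60 and 0.73 without, and at -1.77 and -1.15 in WT with salt and 1.03 and 1.03 without. SSF2 was at -3.42 and -3.15 in htz1D with salt and -0.82 and -1.01 without, and at -1.66 and -1.38 in WT with salt and -0.32 and -0.40 without. Both fell in both strains: the change was -3.95 ± 0.19 in htz1D and -2.49 ± 0.19 in WT for SSF1, and -2.37 ± 0.15 and -1.16 ± 0.15 for SSF2. The paralogs are similar in sequence, and how far their probes share signal was not tested.

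**Figure D3:**
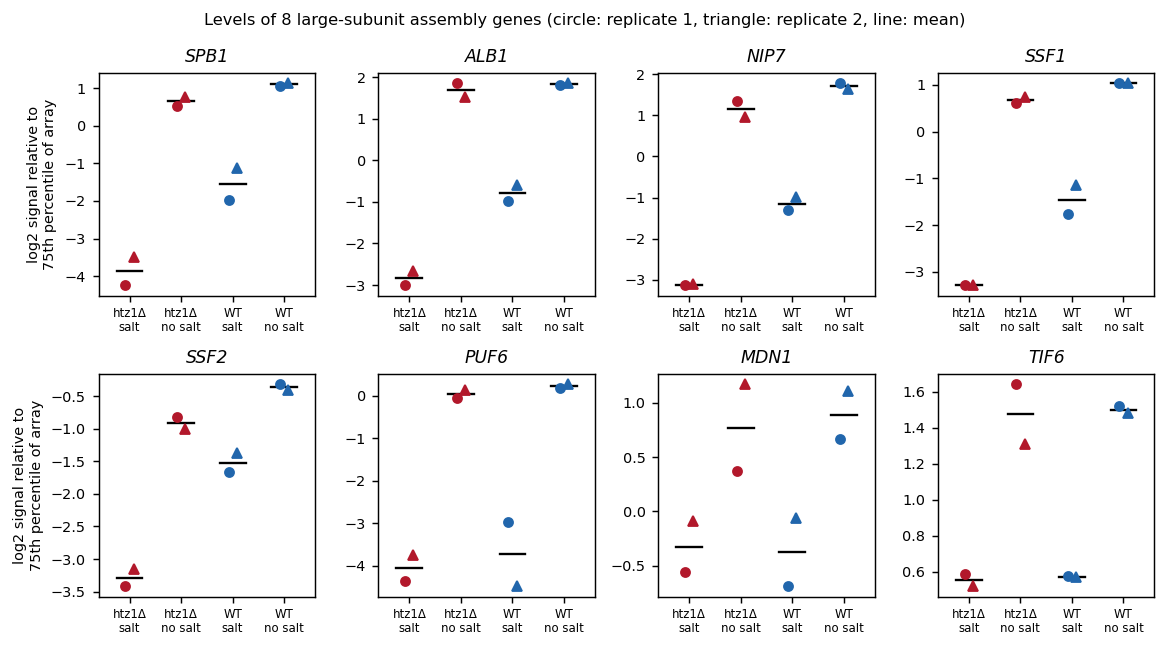
Log2 level relative to the array's 75th percentile on every array for 8 of the genes (circle, replicate 1; triangle, replicate 2; line, group mean; htz1D in red, WT in blue, salt left of no salt). SPB1, ALB1, NIP7, SSF1 and SSF2 are lower in htz1D than in WT with salt, TIF6 is nearly equal in the strains, MDN1 varies between replicates, and PUF6 differs by 1.51 between its WT arrays with salt.

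Both rRNA methyltransferases fell. SPB1 (YCL054W), a 2'-O-methyltransferase of the 25S rRNA, was at -4.25 and -3.50 in htz1D with salt and 0.54 and 0.76 without, and at -1.98 and -1.13 in WT with salt and 1.07 and 1.13 without. Its change of -4.52 ± 0.32 in htz1D was the largest of all 55 genes, and its change in WT was -2.66 ± 0.32. NOP2 (YNL061W), a cytosine methyltransferase of the 25S rRNA, changed by -2.77 ± 0.15 and -2.39 ± 0.15.

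The 4 GTPases fell by a median of 2.41 in htz1D and 1.90 in WT. The nuclear GTPases NOG1 (YPL093W) and NOG2 (YNR053C) changed the most: NOG1 by -3.50 ± 0.27 in htz1D and -2.68 ± 0.27 in WT, and NOG2 by -3.03 ± 0.28 and -1.94 ± 0.28. NUG1 (YER006W) and LSG1 (YGL099W) changed less and nearly alike in the strains, NUG1 by -1.79 in htz1D and -1.86 in WT, and LSG1, the cytoplasmic GTPase that frees the export adapter NMD3, by -1.58 and -1.54.

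The 6 genes of late nuclear steps fell too, with medians of -2.63 in htz1D and -2.12 in WT. RLP24 (YLR009W), which holds the site of ribosomal protein L24 until the particle reaches the cytoplasm, changed the most, by -3.53 ± 0.18 in htz1D and -2.70 ± 0.18 in WT. MDN1 (YLR106C), the giant AAA ATPase also called REA1, changed the least: it was at -0.56 and -0.09 in htz1D with salt and 0.37 and 1.17 without, and at -0.69 and -0.06 in WT with salt and 0.67 and 1.11 without. Its replicates lay far apart, and its reductions of 1.09 ± 0.33 in htz1D (adjusted p = 0.0231, limma) and 1.27 ± 0.33 in WT (adjusted p = 0.0131, limma) had the highest adjusted p of the 55 genes. They no longer passed when replicate 1 with salt or replicate 2 without salt of the strain concerned was left out. RSA4 (YCR072C), the factor on which MDN1 pulls, changed by -3.15 ± 0.33 in htz1D and -1.99 ± 0.33 in WT. SDA1, which joins the particle before export, changed by -2.49 ± 0.12 and -2.19 ± 0.12, with its signal near background on 1 htz1D array with salt.

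Factors of export and cytoplasmic maturation ranged from some of the largest changes to the smallest. ALB1 (YJL122W), the partner of the export factor ARX1, was at -3.01 and -2.65 in htz1D with salt and 1.85 and 1.52 without, and at -0.99 and -0.59 in WT with salt and 1.81 and 1.85 without. It changed by -4.51 ± 0.19 in htz1D and -2.62 ± 0.19 in WT. ARX1 (YDR101C) changed by -3.58 ± 0.25 in htz1D and -3.21 ± 0.25 in WT, the largest WT change of the 7. REI1 (YBR267W), which removes ARX1 in the cytoplasm, changed by -3.50 ± 0.28 and -2.01 ± 0.28. NMD3 (YHR170W), the adapter to the exportin CRM1, changed by -2.10 ± 0.13 and -1.89 ± 0.13. TIF6 (YPR016C), which keeps the subunits apart until the last step, was at 0.59 and 0.52 in htz1D with salt and 1.64 and 1.31 without, and at 0.58 and 0.57 in WT with salt and 1.52 and 1.48 without. Its groups did not overlap, and its change of -0.92 ± 0.13 in each strain was the smallest of the 55.

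The remaining 7 nucleolar factors fell by a median of 2.68 in htz1D and 2.33 in WT. NIP7 (YPL211W), which binds early 60S particles, was at -3.14 and -3.10 in htz1D with salt and 1.34 and 0.97 without, and at -1.30 and -0.99 in WT with salt and 1.78 and 1.65 without. It changed by -4.28 ± 0.16 in htz1D and -2.86 ± 0.16 in WT. NSR1 (YGR159C), a nucleolin-like protein better known for processing of the small-subunit rRNA, changed by -4.48 ± 0.22 and -3.26 ± 0.22. PUF6, a nucleolar RNA-binding protein also known from localised mRNA in yeast, read -4.37 and -3.76 in htz1D with salt and -0.06 and 0.13 without, and -2.98 and -4.49 in WT with salt and 0.19 and 0.27 without. Its fitted change was -4.10 ± 0.44 in htz1D and -3.96 ± 0.44 in WT, with the highest SE of all. The WT value includes the array on which it was not well above background, replicate 2, and was -3.21 without that array. LOC1 (YFR001W), which works beside PUF6, changed by -2.22 ± 0.14 in htz1D and -1.46 ± 0.14 in WT.

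In salt-treated cells most of these transcripts were lower in htz1D than in WT. The difference passed for 42 of 55 genes (76.4%), all lower in htz1D, against 16.2% of all genes tested, and its median was -0.94, so that htz1D held 52.1% of the WT level; the median over all genes was -0.07. For 50 of the 55 genes both htz1D arrays lay below both WT arrays, as they did for 40.5% of all genes. The 5 that overlapped were NOP7, NUG1, MDN1, TIF6 and PUF6. Among all calls, 73.7% were lower in htz1D under the percentile scaling, 56.6% under quantile scaling and 53.3% in the authors' deposited values.

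By role, all 8 helicases, both methyltransferases, 8 of 9 Brix-domain factors and partners, 5 of 6 early factors, 5 of 7 other nucleolar factors, 3 of 4 GTPases, 4 of 6 late nuclear factors, 4 of 7 export and cytoplasmic factors and 3 of 6 of the NOP7 and spacer group were lower in htz1D with salt. SPB1 differed the most, by -2.32 ± 0.32 (adjusted p = 0.00364, limma). ALB1 (-2.04 ± 0.19, adjusted p = 0.00109), DBP7 (-2.00 ± 0.18, adjusted p = 0.00102) and NIP7 (-1.97 ± 0.16, adjusted p = 0.000756) followed. MAK16 was 3.64-fold lower and CIC1 3.49-fold lower, and the paralogs SSF1 and SSF2 were 3.54-fold and 3.40-fold lower. RSA4, at -5.21 and -4.22 in htz1D and -3.36 and -2.70 in WT, differed by -1.69 ± 0.33.

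Of the 13 genes that did not pass, 4 lay closest to 0: TIF6 (-0.02 ± 0.13), MDN1 (0.05 ± 0.33), NUG1 (-0.20 ± 0.13) and NOP7 (-0.24 ± 0.17). RPF1 (-0.45), NMD3 (-0.40), NSA2 (-0.47), NOP13 (-0.37) and PUF6 (-0.33) were intermediate. RLP7 (-0.94), YTM1 (-0.89), ARX1 (-0.82) and URB1 (-0.69) had differences as large as those of genes that passed, with adjusted p of 0.053 to 0.059 (limma). When any 1 library was left out, the median difference over the whole set lay between -1.19 and -0.74. The median over all genes lay between -0.09 and -0.06 in those fits. Fewer genes of the set, and fewer of all genes, passed without either htz1D array with salt or without replicate 2 of WT with salt. Without replicate 1 of WT with salt, fewer of all genes passed but not fewer of the set. Under normexp background correction the count of 42 became 23 (41.8%), against 4.58% of all genes. It became 30 (54.5%) with quantile scaling, against 10.5% of all genes, and 29 (52.7%) in the authors' values, against 11.7%. The genes that passed under all 16 alternative settings numbered 18: DBP7, DBP10, SPB4, URB2, CIC1, SSF1, SSF2, RRS1, MAK16, NSA1, SPB1, ALB1, REI1, MRT4, SQT1, NOP12, NIP7 and NSR1.

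Without salt the strains were much closer. Only 4 of 55 genes (7.27%) were lower in htz1D and none was higher, against 6.32% lower among all genes tested, a share near the background in these values. These were SQT1 (-0.67 ± 0.12), the chaperone of ribosomal protein L10, NSA1 (-0.52 ± 0.12), SDA1 (-0.52 ± 0.12) and LSG1 (-0.41 ± 0.11), with adjusted p of 0.0155 to 0.0457 (limma). SQT1 (YIR012W) was at 0.31 and 0.12 in htz1D and 0.96 and 0.81 in WT. The median over the 55 genes was -0.27, against -0.04 over all genes. Both htz1D arrays lay below both WT arrays for 42 of 55 genes, as for 33.0% of all genes. The count moved both ways with the setting. None of the 4 passed under every alternative. Fewer of the 55 genes, and fewer of all genes, passed when any 1 array was left out, with medians over the 55 between -0.33 and -0.26. In the authors' deposited values 11 of 55 were lower in htz1D (20.0%), against 7.79% of all genes in that table. With normexp correction 0 of the 55 passed, against 0.426% of all genes, and 12.4% of all calls were lower in htz1D in place of 46.2%.

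Whether the salt response itself differed between the strains was tested as an interaction, the change in htz1D minus the change in WT. This difference was negative for 51 of 55 genes, and for 3355 of all 5394 genes tested. Its median was -0.66 over the 55 genes, against -0.07 over all genes. Only 2 of 55 passed (3.64%), against 0.890% of all genes. At an unadjusted p under 0.05 it was 29 of 55, all lower, against 9.90% of all genes. Those that passed were ALB1, at -1.90 ± 0.27 (adjusted p = 0.0303, limma), and NIP7, at -1.42 ± 0.23 (adjusted p = 0.0441, limma). ALB1 thus fell 22.8-fold in htz1D and 6.14-fold in WT, and NIP7 fell 19.4-fold in htz1D and 7.26-fold in WT.

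Several genes with differences of similar size did not pass. SPB1 had -1.87 ± 0.45, MAK16 -1.73 ± 0.31 (adjusted p = 0.0571, limma), DBP7 -1.49 ± 0.26 (adjusted p = 0.0514), SSF1 -1.46 ± 0.27 (adjusted p = 0.0653) and SSF2 -1.21 ± 0.21 (adjusted p = 0.0563). At the other end MDN1 (0.17 ± 0.46), NOP7 (0.04 ± 0.23), TIF6 (0.01 ± 0.19), LSG1 (-0.04 ± 0.15), DRS1 (-0.07 ± 0.23), RPF1 (-0.09 ± 0.21), NOP13 (-0.10 ± 0.21), PUF6 (-0.14 ± 0.62) and URB1 (-0.18 ± 0.30) lay near 0, and the sign of each of these 9 changed under at least 1 alternative setting. NUG1 (0.07) also lay near 0, and its sign changed under an alternative setting as well. By role the median difference was -1.17 for the Brix-domain group, -1.12 for the 2 methyltransferases, -0.76 for the other nucleolar factors and between -0.69 and -0.63 for the early, spacer and helicase groups. It was -0.43 for the GTPases, -0.40 for export and cytoplasmic factors and -0.39 for late nuclear factors.

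**Figure D4:**
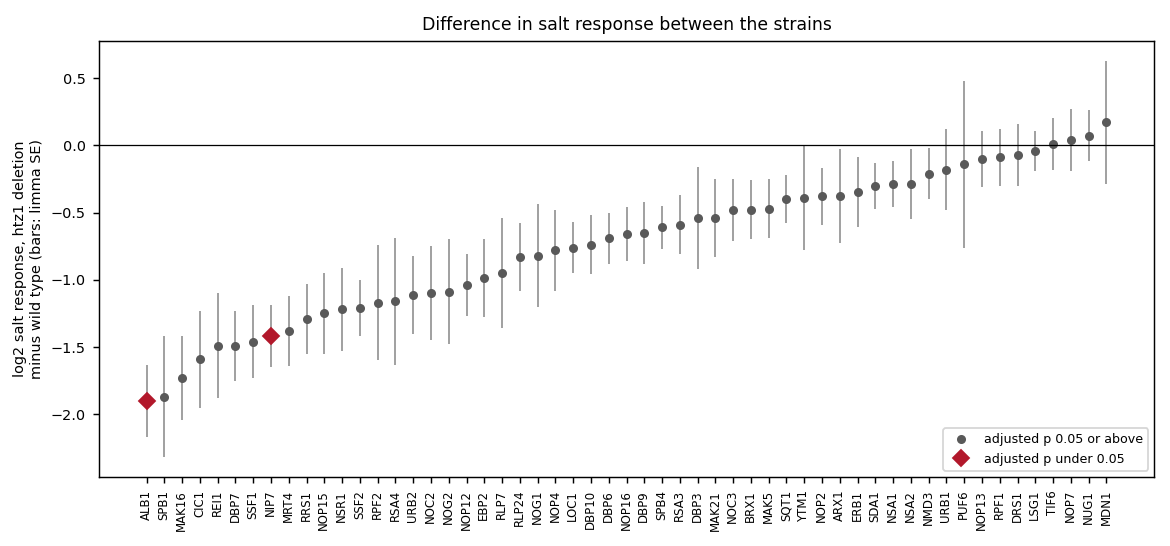
Difference in salt response (log2 change in htz1D minus that in WT) for each of the 55 genes in order of size, with its limma standard error. Red diamonds mark ALB1 and NIP7, which passed, and 51 of 55 points lie below 0. Over all genes tested, the difference was below 0 for 3355 of 5394.

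The size of this strain difference moved with the arrays and values used. Without replicate 1 of WT with salt its median over the 55 genes was -0.83, and without replicate 2 of that group it was -0.49. Leaving out any 1 of the other 6 arrays gave medians between -0.72 and -0.63. With 1 array left out, ALB1 and NIP7 passed only without replicate 1 of WT with salt. The median was -0.47 with quantile scaling, where 1 gene passed (ALB1), against 0.538% of all genes. It was -0.20 in the authors' deposited values, where 1 gene passed (ALB1), against 0.242% of all genes. Signal moved with the result too: the median ratio of the 55 spots to their local background was 12.1 and 14.1 on the htz1D arrays with salt, 87.4 and 93.9 on the htz1D arrays without, 21.8 and 44.1 on the WT arrays with salt, and 126 and 139 on the WT arrays without. Its part in the result was not tested. In a split made after seeing the data, the 27 genes with the higher mean level had a median difference of -0.54 and the 28 others -0.71, against -0.23 and -0.18 in the authors' values.

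**Figure D5:**
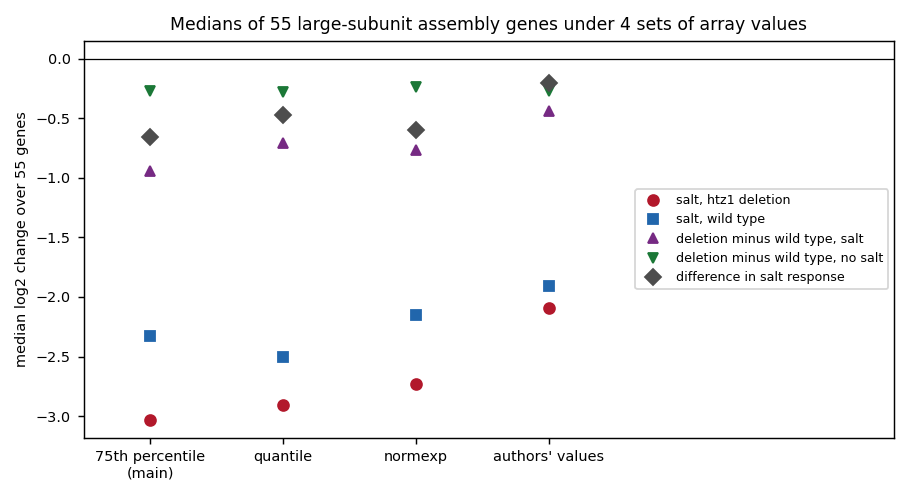
Median log2 change over the 55 genes for each of the 5 comparisons (salt in htz1D, salt in WT, htz1D minus WT with and without salt, and the difference in salt response) under 4 sets of array values. All medians are below 0 in each set, and the difference in salt response is -0.66 with the main values and -0.20 in the authors' values.

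Other ribosome genes were set beside these for scale. Of 39 further 60S factors, 36 fell with salt in htz1D and 36 in WT, with medians of -2.17 and -1.83, and 24 were lower in htz1D than in WT with salt (median -0.59). The largest changes were those of IPI3 in htz1D (-4.29 ± 0.23), part of the complex that works with MDN1, and SYO1 in WT (-3.38 ± 0.19), the importer of ribosomal proteins L5 and L11. The mRNA exporter MEX67 (0.08 in htz1D and 0.19 in WT) and the exportin CRM1 (0.33 and 0.10) did not pass, and the sign of MEX67 in htz1D and of CRM1 in WT changed under an alternative setting. REH1, the paralog of REI1, was the only one of the 39 that rose, by 0.47 ± 0.10 in htz1D and 0.61 ± 0.10 in WT (adjusted p = 0.00509 and 0.00156, limma), and was picked out after its values were seen. Of 62 small-subunit processome and 40S genes tested, all 62 fell in both strains, with medians of -2.81 in htz1D and -2.16 in WT, 44 were lower in htz1D than in WT with salt (median -0.94) and 5 passed as an interaction (median -0.67). These values lie close to those of the 55 large-subunit factors.

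The large-subunit ribosomal proteins, the components that the factors put together, changed less. Of 80 tested, 73 were lower with salt in htz1D and 70 in WT, with medians of -0.89 and -0.91, and 2 were lower in htz1D than in WT with salt (median -0.03, whose sign changed when single arrays were left out). Of the 55 factors, 3 resemble a ribosomal protein, a set chosen after their values were seen. MRT4 (YKL009W) changed by -3.93 in htz1D and -2.55 in WT, and its counterpart RPP0 by -0.60 and -0.49, though RPP0 did not pass under quantile scaling, under normexp or when some single arrays were left out. RLP24 changed by -3.53 and -2.70, and RPL24A and RPL24B by -0.86 and -1.06 in htz1D and by -0.86 and -1.07 in WT; RPL24A did not pass in either strain when 1 of its arrays was left out. RLP7 (YNL002C) changed by -3.74 and -2.79, and RPL7A and RPL7B by -1.04 and -2.10 in htz1D and by -1.16 and -1.28 in WT. Near-identical ribosomal protein paralogs can share probe signal, so the values of such a pair are uncertain, and the differences between factors and ribosomal proteins were not tested.

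The 55 genes lie on all 16 yeast chromosomes, and in the gene order of the R64 annotation 4 of them neighbour another listed assembly gene. NSA2 is transcribed away from the processome gene LCP5, which changed by -2.93 in htz1D and -1.68 in WT, against -2.34 and -2.05 for NSA2. NMD3 follows the helicase gene DBP8 (-3.17 and -2.28), RSA3 lies beside the processome gene UTP13 (-3.67 and -1.94, against -2.95 and -2.36 for RSA3), and NOG2 beside the processome gene ESF2 (-3.59 and -2.30), each pair on 1 strand. The 95 other neighbouring genes tested had median changes of -0.20 in htz1D and -0.11 in WT, and 36.8% and 30.5% of them were lower with salt, against 29.1% and 25.7% of all genes.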

How the data were processed

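Total RNA was labelled with Cy3 and hybridised to Agilent Yeast (V2) arrays, per the labels. The deposited scanner files, made per their file headers by the Agilent program Feature Extraction (version 10.7.3.1), hold the intensity and background of each spot, and name sacCer2 as the array design's build. A deposited table of the authors' processed log2 values (column medians 10.55 to 10.57) was used as an alternative. Its correlation with each array's median signal was 0.987 to 0.997, and how it was scaled is not stated in the labels; limma is named in the submitters' processing notes.

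From the processed signal intensity, log2 values minus each array's 75th percentile were taken over 12512 non-control spots (6256 probes), leaving out 86 flagged spots; 0 were saturated. A gene, read by its brightest probe, was tested where some group had it well above background on each of its arrays. Levels are relative to the array, so a change in total mRNA per cell is not seen. limma 3.58.1 in R 4.3.3 fitted 4 group means to 8 arrays (4 residual degrees of freedom), with Benjamini-Hochberg adjustment over 5394 genes and a threshold of 0.05. The fit was checked on simulated data. A permutation test of 2 arrays against 2 cannot go below 0.333.

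Symbols came from the R64 table (all 55 genes matched). Named genes were, per role group and comparison, those of largest and smallest change, SSF1 and SSF2, exceptions and dim genes, and the largest changes of other lists; further genes were named after their values were seen. The genes and lists were chosen with earlier results of these data known. Alternatives were quantile scaling, normexp (offset 50) on median signal in place of mean signal, the authors' values, 2 other filters on dim probes, averaged probes, the replicate number as a block, only the arrays compared, and leaving out each array. The analysis of promoter motifs was not run, and no sequences were analysed here.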

Additional observations from a re-analysis of the deposited data

Results flagged for a closer look

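The salt response of 2 of the 55 large-subunit assembly genes differed between the strains by a test of the difference itself (the limma interaction term, adjusted over all genes tested). ALB1, the partner of the export factor ARX1, fell further in htz1D than in WT, with a difference of -1.90 log2 units (adjusted p = 0.0303). So did NIP7, a factor of early particles, with a difference of -1.42 (adjusted p = 0.0441). On both salt-treated htz1D arrays both genes were below both salt-treated WT arrays, as were 50 of the 55 genes and 40.5% of all genes. That compares levels with salt, not the salt responses. Neither passed under all 15 alternatives: over these, the ALB1 difference lay between -2.10 and -1.21 with adjusted p of 0.0168 to 0.197 (limma) and passed in 6, and the NIP7 difference lay between -1.60 and -0.68 with adjusted p of 0.0289 to 0.302 and passed in 4. With 2 arrays a group, single arrays that lie apart could not be tested for.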

How the results depend on the processing

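All 55 genes passed as lower with salt in htz1D and in WT under each of the 16 alternatives in which they were tested, except MDN1. In each strain MDN1 did not pass when replicate 1 with salt or replicate 2 without salt of that strain was left out. SDA1 and PUF6 were not tested where every array had to be above background. The median change with salt in htz1D was -2.73 with normexp background and -2.09 in the authors' values (-3.07 to -2.98 with 1 array left out). In WT it was -2.50 with quantile scaling, -2.15 with normexp and -1.91 in the authors' values (-2.55 to -2.18 with 1 array left out). For htz1D against WT with salt the median was -0.71 with quantile scaling, -0.77 with normexp and -0.44 in the authors' values (-1.19 to -0.74 with 1 array left out), and the count of genes lower in htz1D was 23 with normexp (23 to 43 with 1 array left out). Without salt, the 4 genes lower in htz1D became 0 with normexp (against 0.426% of all genes) and 11 in the authors' values (7.79%). They became 2 with no filter on dim probes (3.82%) and 0 with only the 4 arrays compared (2.32%). With 1 array left out the median lay between -0.33 and -0.26. For the difference in salt response the 2 genes became 1 with quantile scaling, 0 with normexp, 1 in the authors' values, 0 with no filter, 7 with only genes above background on all 8 arrays, and 0 to 14 with 1 array left out; the median was -0.47 with quantile scaling, -0.20 in the authors' values and -0.83 to -0.49 with 1 array left out. For the difference in salt response the share of all genes lower was 0.890% in the main fit and 0.538% with quantile scaling. It was 0.0185% with normexp, 0.242% in the authors' values, 0.193% with no filter and 1.09% with the filter on all 8 arrays. More of all genes passed without replicate 1 of WT with salt, and fewer without any other array. For htz1D against WT with salt the share was 4.58% with normexp. More passed without either untreated htz1D array, and fewer without any other. The filters changed which genes were tested, and leaving out an array left fewer samples. Why the counts and medians moved was not tested.

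The groups share replicate numbers 1 and 2, but the labels name no shared batch or day and there are only 2 numbers. Same-numbered arrays deviated together (correlations of 0.176 to 0.422 between pairs of groups), and the fit with the replicate number as a block called 9 of the 55 genes lower in htz1D without salt (16.4%, against 12.9% of all genes) and 9 in the difference in salt response (16.4%, against 2.28% of all genes). Those 9 were ALB1, NIP7, DBP7, URB2, SSF1, SSF2, MAK16, SPB1 and NOP12.

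Over all 55 genes and all alternatives, 0 changed sign with salt in either strain, 3 in htz1D against WT with salt, 11 without salt and 15 in the difference in salt response. The values follow for those that the naming rule picked in each comparison. In htz1D against WT with salt these were MDN1 (-0.03) and TIF6 (0.01) with normexp, and with 1 array left out MDN1 (-0.27 to 0.37), PUF6 (-1.09 to 0.42) and TIF6 (-0.06 to 0.01). Without salt they were NOP16 (0 with quantile scaling, -0.04 with normexp, -0.04 in the authors' values), RLP7 (-0.06, -0.13 and -0.16 in the same order) and RRS1 (0.01 with normexp, 0 in the authors' values), and with 1 array left out NOP16 (-0.08 to 0.15), RLP7 (-0.05 to 0.08), RRS1 (-0.21 to 0.09), RLP24 (-0.04 to 0.17) and TIF6 (-0.19 to 0.13). In the difference in salt response they were DRS1 (0.18), LSG1 (0.01), PUF6 (0.14), RPF1 (0.15) and URB1 (0.02) with quantile scaling, LSG1 (0.07) and NOP13 (0.11) with normexp, and DRS1 (0.28), LSG1 (0.10), NOP13 (0.15), NOP2 (0.06), RPF1 (0.18), SDA1 (0.17) and URB1 (0.14) in the authors' values. With 1 array left out the differences lay between -0.16 and 0.17 for TIF6, -0.22 and 0.57 for MDN1, -0.19 and 0.26 for NOP7, -0.89 and 0.62 for PUF6, -0.24 and 0.10 for DRS1, -0.10 and 0.02 for LSG1, -0.46 and 0.10 for URB1, -0.27 and 0.08 for NOP13 and -0.31 and 0.12 for RPF1. Of the other genes, MEX67 with salt in htz1D was 0 with normexp and -0.01 to 0.17 with 1 array left out, and CRM1 in WT was -0.10 to 0.29. Normexp moved the median of all genes by -0.19 for salt in htz1D, 0.15 for the strains without salt and -0.14 for the difference in salt response, and 64.4% in place of 49.8% of all calls for salt in htz1D were then lower. The promoter motif alternatives were not run. Signal over background was lowest on the htz1D arrays with salt (5.33 for RPF2), which limits the precision of the largest reductions.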
